A study of Macaca mulatta with 2 samples.

Results

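Complement is a set of plasma and cell-surface proteins that marks and lyses target cells, and 9 of its genes were followed here in cultured rhesus macaque Sertoli cells: C1R, C1S, C3, CFB and CFI of the enzyme cascade, SERPING1, the inhibitor of its first step, and CD46, CD55 and CD59, which shield a cell's own membrane. They were found by gene name on both arrays, 9 of the 19471 genes or unnamed probes measured, with all their probes taken. These are 17 probes of the 41000 on the array, and 14 of them were bright enough to be tested, among 25770 probes in all. The pubertal Sertoli cells came from macaques (Macaca mulatta) 18 to 22 months old that had been brought into puberty by pulses of gonadotropin-releasing hormone (GnRH, given at 0.15 µg/min in pulses of 2 min with 3 h between them, over 4 to 5 weeks), and the infant Sertoli cells from males younger than 3 months. Both kinds of primary culture spent 24 h with follicle-stimulating hormone (FSH, 5 ng/ml) and testosterone (100 nM) before RNA was taken, so the hormones are common to all 4 cultures and their effect was not measured. Each of 2 arrays carried the RNA of 1 pubertal and 1 infant culture of different animals, with pubertal RNA in the red dye (Cy5) on array 1 and in the green dye (Cy3) on array 2. The cultures are called pubertal 1, pubertal 2, infant 1 and infant 2 by their array.

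The C1 complex, whose proteases are C1r and C1s, can start the complement cascade by cutting C4 and C2. The cascade can also start when factor B joins activated C3, or by the lectin pathway, which has no gene among the members. All routes meet at C3, whose fragment C3b coats the target and leads to the membrane attack complex. C1 inhibitor blocks C1r and C1s, factor I cuts C3b with the help of CD46, CD55 takes apart the enzymes that cleave C3, and CD59 stops the last step of pore assembly. Sertoli cells form the barrier behind which germ cells are kept from the immune system, and are known from graft studies to make complement inhibitors.

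The probes are 60 bases long and match the human genes, with positions on the human build hg17 as the scanner files give them, so macaque RNA was read with human letters. All 9 symbols also stand in the macaque gene table of RefSeq. The 8 probes printed here are those of C3, SERPING1, CFB and CFI, whose values differed with the array, the dye or the background, the CD46 probe whose groups did not overlap, and a pair that shows a repeat within CD55. Of these, 8 can be read in at least 1 frame without a stop codon. Their place in exons was not checked against an annotation, nor were mismatches to macaque RNA, which can dim a probe. The C3 probe covers 258 bases of chromosome 19 (6630177 to 6630434) and the CFB probe 156 bases of chromosome 6 (32026971 to 32027126), more than their own length. Capitals in the second CFI probe mark the codons of 4 basic residues in a row, of the kind at which the human factor I precursor is cut into its chains. Capitals in the CD55 probes mark the longest run of bases that both share, 10 bases, and 43 of 58 bases are identical when they are laid over each other without gaps. The second CD55 probe, whose file entry is an alternatively spliced form, starts 265 bases from the first on chromosome 1.
C3 A_23_P101407: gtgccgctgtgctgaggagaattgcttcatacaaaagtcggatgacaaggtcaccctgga
SERPING1 A_23_P139123: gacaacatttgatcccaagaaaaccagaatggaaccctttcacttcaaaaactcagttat
CFB A_23_P156687: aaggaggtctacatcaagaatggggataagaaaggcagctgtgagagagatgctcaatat
CFI A_23_P7212: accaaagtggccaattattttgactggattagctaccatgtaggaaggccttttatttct
CFI A_24_P92472: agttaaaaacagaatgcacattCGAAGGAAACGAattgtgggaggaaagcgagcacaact
CD46 A_23_P35230: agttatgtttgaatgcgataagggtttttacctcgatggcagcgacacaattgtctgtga
CD55 A_24_P188377: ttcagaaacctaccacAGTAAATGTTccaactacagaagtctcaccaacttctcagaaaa
CD55 A_23_P312008: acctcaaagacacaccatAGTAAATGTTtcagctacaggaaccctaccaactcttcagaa

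The 2 arrays had little in common. Over all kept probes the log2 ratios of pubertal over infant on array 1 and array 2 correlated at -0.0746 (Pearson) and -0.109 (Spearman), given as a description across probes, and 45.3% of probes had the same sign. Well above background were 74.8% and 62.6% of spots for pubertal 1 and pubertal 2, and 60.9% and 71.5% for infant 1 and infant 2. The higher share on each array was the Cy5 channel. Of 13 Sertoli cell markers, 13 were measured and 12 were well above background in all 4 cultures. Both arrays were on 1 slide and in 1 scan, so neither could be tested as a batch.

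C3 had the largest mean difference over the 2 arrays among the members and was higher in the pubertal culture on both, while CFI was further apart on array 1 alone. C1R was also higher on both, by less, and SERPING1 was lower on both while being close to background. The other 6 genes (C1S, CFB, CFI, CD46, CD55 and CD59), judged by their brightest probe, had opposite signs on the 2 arrays. None of the 14 probes passed limma's test after Benjamini-Hochberg adjustment over all 25770 probes (0% of all probes passed). At an unadjusted p under 0.05 there was 1 member probe, that of C3, against 4.05% of all probes. No member probe was at least 1.5-fold apart in one direction on both arrays, against 1.44% of all probes with pubertal higher and 1.09% with pubertal lower (2.54% together). By genes, 2 of 9 were higher on both arrays against 23.5% of all genes, and 1 of 9 was lower on both against 21.9%, shares near or below those of the array as a whole. The lower gene, SERPING1, was kept through its infant channels alone, the group where it was higher. Among probes well above background in all 4 channels, 0 members were lower on both arrays. In these cultures a difference in RNA per cell cannot be told apart from a difference in the share of cells that make it.

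**Figure D1:**
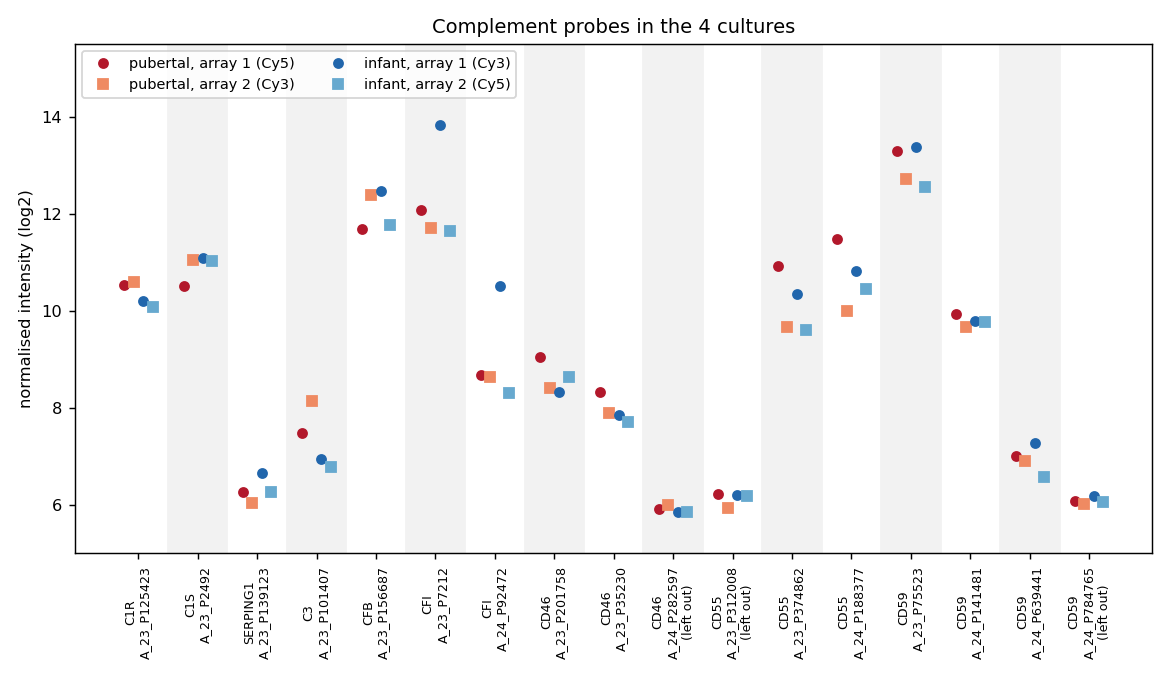
Normalised intensity (log2 scale, vertical axis) of all 17 complement probes in the 4 cultures, with the pubertal cultures left of the infant ones for each probe; probes marked as left out were too dim to be tested. Infant 1 stands alone at the top for both CFI probes, and both pubertal cultures lie above both infant cultures for C3 and C1R.

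**Figure D2:**
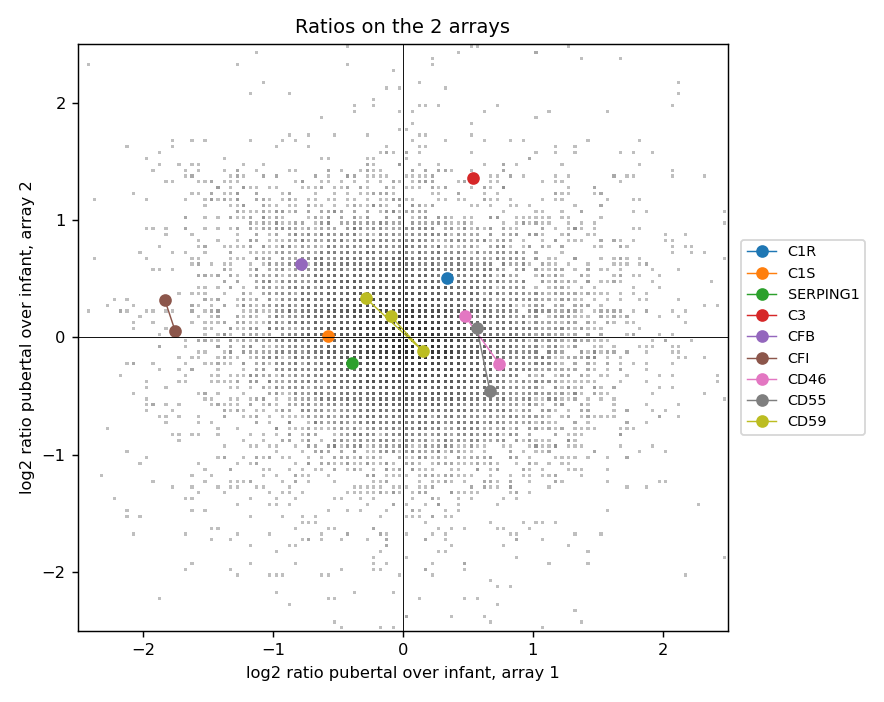
Log2 ratio of pubertal over infant on array 1 (horizontal) against array 2 (vertical) for the 14 kept complement probes, lines joining probes of 1 gene, over the density of all kept probes in grey (values beyond the axes not shown). C3 and C1R lie in the upper right, both CFI probes far to the left, and CFB in the upper left.

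C3 is the protein at which all routes of complement activation meet. Its probe had normalised intensities of 177 and 281 in pubertal 1 and pubertal 2, against 122 and 110 in infant 1 and infant 2. Both pubertal cultures were above both infant cultures and the groups did not overlap. The log2 ratio was 0.54 on array 1 and 1.36 on array 2, at percentiles 87.5 and 99.2 of all kept probes. The mean of 0.95 ± 0.30 (moderated SE, n = 2 array pairs) is a 1.93-fold difference with a 95% interval of 1.14 to 3.25. Its unadjusted limma p was 0.0228 and its adjusted p 0.99997, and the adjusted p lay between 0.309 and 1 over the alternatives. The intensities hold an added constant of 50, which makes ratios of dim probes smaller: with the constant at 0 the mean log2 ratio was 1.43, and with the scanner's own processed signals 1.60. In the authors' deposited table C3 is listed at log2 ratios of 0.957 and 2.21.

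Because the dyes were swapped, the cultures can also be set side by side within a dye, pubertal 1 with infant 2 in Cy5 and pubertal 2 with infant 1 in Cy3. A dye effect then falls out and a difference between the arrays does not, and the mean of both values is the same as that of the array ratios. For C3 these log2 ratios were 0.69 in Cy5 and 1.21 in Cy3, or 1.61-fold and 2.31-fold. Each of these 4 pairings put C3 higher in the pubertal culture, which restates that the groups did not overlap. That held for 3 of the 14 member probes, those of C3, C1R and CD46 (A_23_P35230), with pubertal higher, against 15.6% of all probes, and for 0 with pubertal lower, against 14% of all probes. Of the 14 member probes, 4 were higher in both dyes (25.6% of all probes) and 2 lower (22.8%). By genes, 3 of 9 were higher (25.9% of all genes) and 2 lower (22.8%). This comparison was added after the data were seen.

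Of the 13 Sertoli cell markers, 7 were higher in pubertal cultures on both arrays and 1 lower, against 23.5% and 21.9% of all genes. The lower marker, FSHR, was dim and was kept through its infant channels alone, the group where it was higher. The bright markers INHA and INHBB, 2 of the 13, had a saturated spot, so no sum is given. Markers of germ cells were higher as well, 6 of 6 on both arrays, against 23.5% of all genes. SYCP3, 1 of these 6, was kept through its pubertal channels alone, the group where it was higher. Their summed intensities were 2262 and 1869 in pubertal 1 and pubertal 2, against 869 and 861 in infant 1 and infant 2. Of 10 macrophage markers, 6 were measured, with sums of 1422 and 978 in the pubertal and 775 and 934 in the infant cultures. Without CD163 the sums were 629 and 687 in the pubertal and 630 and 560 in the infant cultures. Each intensity in these sums holds the added constant of 50, which makes sums of dim markers look more alike. AIF1, CD74 and LYZ had no probe bright enough to be kept, and MRC1 was not found by name. The part of these cells in the C3 and C1R values was not tested.

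The classical pathway proteases C1r and C1s work as a pair, and their probes lie 9468 bases apart on human chromosome 12, on opposite strands. C1R had intensities of 1486 and 1537 in pubertal 1 and pubertal 2, against 1176 and 1083 in infant 1 and infant 2. Both pubertal cultures were above both infant cultures. Its mean log2 ratio was 0.42 ± 0.24 (n = 2), 1.34-fold with a 95% interval of 0.876 to 2.05, which includes no difference. C1S had 1454 and 2099 in pubertal 1 and pubertal 2, against 2165 and 2087 in infant 1 and infant 2. Only pubertal 1 differed, standing below the other 3 cultures. Its log2 ratio was -0.57 on array 1 and 0.01 on array 2, with a mean of -0.28 ± 0.27 and a 95% interval of -0.97 to 0.40.

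SERPING1 encodes C1 inhibitor, which inactivates C1r and C1s. Its probe was dim, with 76.4 and 65.7 in pubertal 1 and pubertal 2, against 100.4 and 76.3 in infant 1 and infant 2. It was well above background in 1 of 2 pubertal cultures and in both infant cultures, so it was kept through the infant ones alone. The level in infant 2 was the same as in pubertal 1, so the lower pubertal values on both arrays (log2 ratios of -0.39 and -0.22) came with no separation of the groups. The mean was -0.30 ± 0.24 with a 95% interval of -0.92 to 0.31. The size depended on how background was handled: the mean was -0.90 with no added constant and -1.51 with the scanner's processed signals, which had 46.7 and 10.3 in the pubertal and 93.1 and 42.1 in the infant cultures. In the authors' deposited table SERPING1 has a log2 ratio of -1.03 for array 1 and an empty cell for array 2. With pairing by dye its log2 ratio was 0.002 in Cy5 and -0.61 in Cy3.

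Factor B, the product of CFB, supplies the protease of the alternative pathway's C3 convertase. CFB had intensities of 3274 and 5381 in pubertal 1 and pubertal 2, against 5639 and 3484 in infant 1 and infant 2. The groups overlapped fully, and the 2 higher cultures were those labelled with Cy3. Its log2 ratio was -0.78 on array 1 and 0.63 on array 2, so that Cy3 exceeded Cy5 1.72-fold and 1.54-fold. CFB was the 1 member probe at least 1.5-fold lower in Cy5 than in Cy3 on both arrays, against 1.89% of all probes. Within a dye its log2 ratios were -0.09 in Cy5 and -0.07 in Cy3. The mean of -0.08 ± 0.39 has a 95% interval of -1.06 to 0.90, wide enough to hold a 1.87-fold difference in either direction. Whether the dye plays a part was not tested beyond these values.

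**Figure D3:**
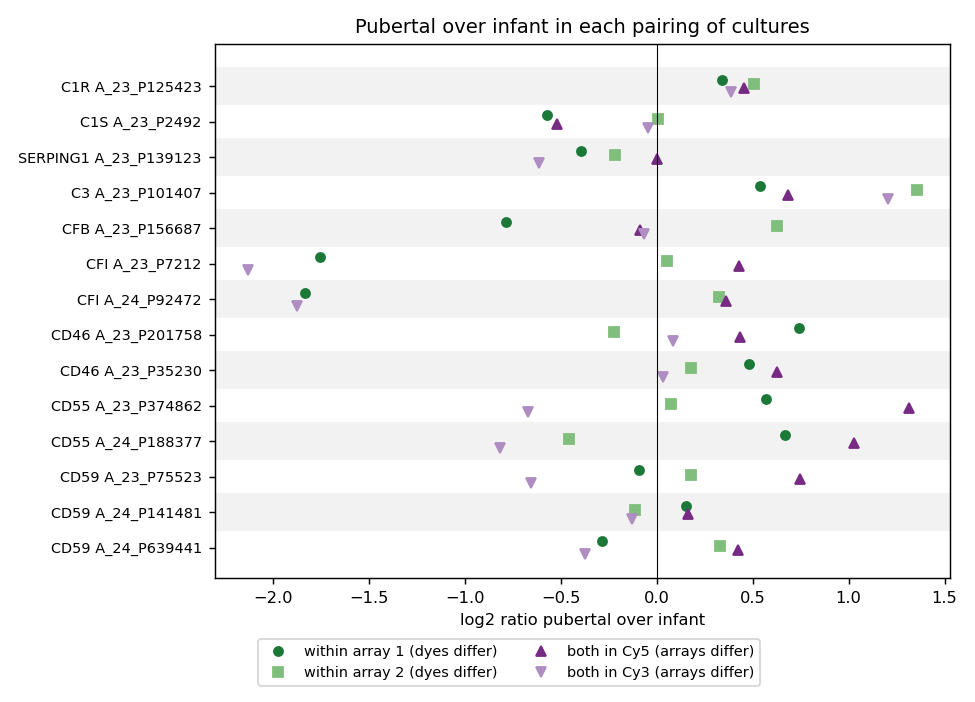
Log2 ratio of pubertal over infant (horizontal) for each kept complement probe in the 4 possible pairings: within array 1, within array 2, both cultures in Cy5 and both in Cy3. All pairings of C3, C1R and the CD46 probe A_23_P35230 lie right of 0, the CFB values lie far apart within arrays and close to 0 within dyes, and CFI lies far left where infant 1 is the partner.

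Factor I, the product of CFI, is the protease that inactivates C3b and C4b. Its level was set apart in 1 infant culture. The probe A_23_P7212 had 4315 and 3322 in pubertal 1 and pubertal 2, against 14547 and 3207 in infant 1 and infant 2. The probe A_24_P92472, which lies 8592 bases away on chromosome 4, had 408 and 397 in the pubertal cultures, against 1454 and 318 in the infant cultures. Both probes thus put infant 1 about equally far above infant 2, 4.54-fold and 4.58-fold, at percentiles 99.86 and 99.87 of that difference over all kept probes. These 2 cultures were in different dyes and on different arrays, which both probes share. Between pubertal 1 and infant 2, both in Cy5, the log2 ratios were 0.43 and 0.36. Between pubertal 2 and infant 1, both in Cy3, they were -2.13 and -1.87.

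On array 1 CFI was 3.37-fold and 3.57-fold lower in the pubertal culture by its 2 probes, at percentiles 0.353 and 0.299 of all kept probes. On array 2 the log2 ratios were 0.05 and 0.32. The means were -0.85 ± 0.46 and -0.76 ± 0.52 (n = 2), with 95% intervals of -2.01 to 0.31 and -2.08 to 0.57. In the authors' deposited table the same probes are listed at -1.81 and -2.01 for array 1 and 0.0279 and 0.415 for array 2. With loess normalization, the difference between the stages in CFI rested on array 1, which holds infant 1: without array 1 the log2 ratios were 0.05 and 0.32. With median centring in place of loess, 1 member probe was at least 1.5-fold lower on both arrays. It can only be A_23_P7212, the only member probe with a mean (-0.60) past that fold on the lower side. The pattern by array thus depended on the normalization.

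Most stromal markers were higher in the infant culture of each array. Of the 11 stromal markers measured, 10 were lower on both arrays in the pubertal culture, against 21.9% of all genes, and LUM had opposite signs. The summed intensity was 32159 and 46969 in pubertal 1 and pubertal 2, against 79897 and 73239 in infant 1 and infant 2. The highest culture was infant 1 for 6 of the 11 and infant 2 for 5. Of the 5 Leydig cell markers, CYP17A1, an androgen-producing enzyme, was highest in infant 1, with 3440 and 818 in pubertal, against 14924 and 2242 in infant cultures. The other Leydig markers were highest in pubertal 1 (2 genes), pubertal 2 (1) or infant 2 (1), and 3 of the 5 had a saturated spot, so no sum is given. Of the 5 markers of peritubular smooth muscle, 4 were highest in infant 2 and 1 in pubertal 2, and 3 were lowest in infant 1. The part of these cells in the CFI value was not tested.

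The 7 kept probes of the membrane inhibitors CD46, CD55 and CD59 all had means above 0, between 0.02 and 0.33, and every one of their 95% intervals included 0. Only the CD46 probe A_23_P35230 and the CD55 probe A_23_P374862 were higher on both arrays, and the rest had opposite signs. CD46, the cofactor with which factor I cuts C3b, had 2 kept probes 26580 bases apart on chromosome 1. The probe A_23_P201758 had 531 and 337 in pubertal 1 and pubertal 2, against 318 and 394 in infant 1 and infant 2, with pubertal 1 highest. The probe A_23_P35230 had 322 and 236 in the pubertal cultures, against 231 and 209 in the infant cultures, so that the groups did not overlap. Their log2 ratios on array 1 were 0.74 and 0.48, and on array 2 they differed in sign, at -0.22 and 0.18. The means were 0.26 ± 0.32 and 0.33 ± 0.25, with 95% intervals of -0.54 to 1.06 and -0.30 to 0.96. A further CD46 probe (A_24_P282597) was not well above background in any culture.

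CD55, or decay-accelerating factor, takes apart the convertases that cleave C3. Its probe A_24_P188377 had 2865 and 1021 in pubertal 1 and pubertal 2, against 1800 and 1403 in infant 1 and infant 2. Its probe A_23_P374862, 22970 bases further on, had 1926 and 815 in the pubertal cultures, against 1298 and 773 in the infant cultures. Both probes placed pubertal 1 highest, and the pubertal cultures lay further apart (2.81-fold and 2.36-fold, at percentiles 99.3 and 98.6 of that difference over all kept probes) than the infant cultures (1.28-fold and 1.68-fold). The pubertal cultures were in different dyes and on different arrays. The mean log2 ratios were 0.11 ± 0.34 and 0.32 ± 0.26, with 95% intervals of -0.76 to 0.97 and -0.34 to 0.99. The probe of the spliced form, printed above beside its near copy, was well above background in 1 pubertal culture and in no infant culture, and was not tested.

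CD59 keeps the membrane attack complex from closing its pore. Its brightest probe, A_23_P75523, had 9988 and 6745 in pubertal 1 and pubertal 2, against 10645 and 5961 in infant 1 and infant 2. Each group had its higher value on array 1. The other 2 kept probes had 977 and 805 (A_24_P141481) and 127 and 120 (A_24_P639441) in the pubertal cultures, against 880 and 872, and 155 and 95.1, in the infant cultures. Mean log2 ratios of 0.04, 0.02 and 0.02 were the closest to 0 among the members, with a widest 95% interval of -0.67 to 0.72. A difference of up to 1.56-fold thus lies inside the interval even of the probe with the narrowest one. The fourth probe of CD59 (A_24_P784765) was not well above background in any culture.

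**Figure D4:**
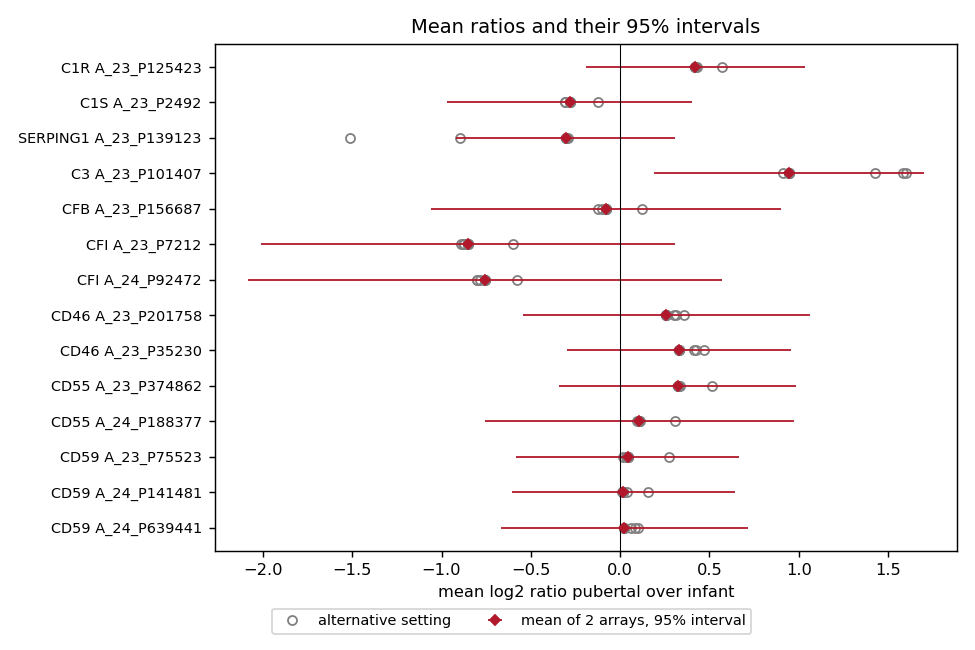
Mean log2 ratio of pubertal over infant over the 2 arrays (diamonds) with its 95% interval from limma's moderated SE (bars) for the 14 kept complement probes, and the mean under each alternative processing (open circles). The interval of C3 alone lies to the right of 0, and SERPING1 and C3 move furthest with the processing.

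The rest of the pathway was taken as a list of 44 genes, of which 43 stood on the array by name and 23 had a kept probe. Of these 23, 3 were higher in pubertal cultures on both arrays and 4 lower, against 23.5% and 21.9% of all genes, and 16 had opposite signs. Among probes well above background in all 4 cultures, 2 genes were higher and 3 lower. The medians of the list were 0.10 on array 1 and -0.13 on array 2, against 0.05 and -0.03 for all genes. None passed the test (0 of 23 at an unadjusted p under 0.05 too, against 4.42% of all genes).

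The probes for C1q, the starter of the classical pathway, were at the edge of detection: C1QA and C1QC were not well above background in any culture, and C1QB was in 1 pubertal and 1 infant culture. C2, cut by C1s, had 3 kept probes, with means of -0.32, -0.15 and -0.03. Among terminal components, C5 had no kept probe. C7, which anchors the growing pore in the membrane, had 358 and 188 in pubertal 1 and pubertal 2, against 701 and 199 in infant 1 and infant 2. As with CFI, infant 1 was highest. C7 had log2 ratios of -0.97 and -0.09, and its second probe a mean of -0.59.

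Among soluble regulators CLU, or clusterin, a major secreted product of Sertoli cells that binds terminal complexes, had 17088 and 18373 in pubertal 1 and pubertal 2, against 22966 and 20237 in infant 1 and infant 2. Both pubertal cultures were below both infant cultures, with a mean log2 ratio of -0.28 ± 0.25 (unadjusted p = 0.303). CFP, or properdin, which steadies the alternative convertase, had -0.28 and -0.45 on the 2 arrays. VTN, or vitronectin, had opposite signs at 0.74 and -0.48. C1QBP, a mitochondrial protein that also binds C1q, had the highest mean of the list, with log2 ratios of 0.35 and 0.54 and a mean of 0.45 ± 0.24. CPN1, a subunit of the carboxypeptidase that trims C3a and C5a, was at 0.10 and 0.22 and well above background in 1 of 2 infant cultures, and C3AR1, the receptor for C3a, at 0.13 and 0.12.

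**Figure D5:**
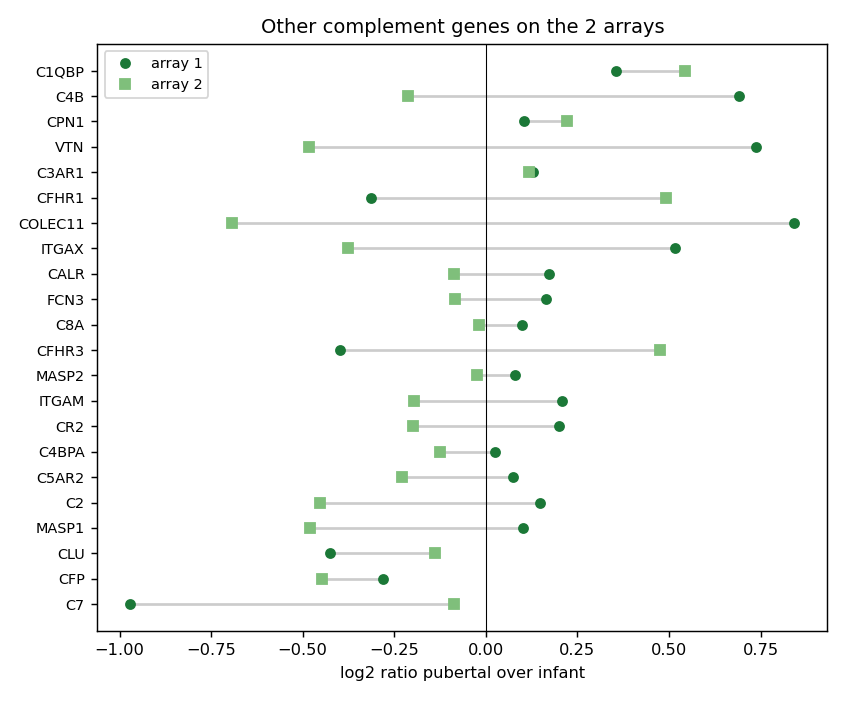
Log2 ratio of pubertal over infant on array 1 (circles) and array 2 (squares) for all but 1 of the 23 measured genes of the rest of the complement pathway, ordered by their mean. Most genes have 1 value on either side of 0, and C7 and C1QBP stand at the ends.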

How the data were processed

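RNA of 4 primary macaque Sertoli cell cultures was hybridised in pairs to 2 Agilent human arrays. Per the labels and file headers, the submitters used Agilent Feature Extraction 9.5.1.1. The deposited scanner files hold mean and background intensity per channel, processed intensity, a log10 ratio of Cy5 over Cy3 and flags, a unit of their own (other). The authors' deposited table of log2 ratios for 4848 probes has unstated normalization; set against the scanner's ratios turned to pubertal over infant, its slopes were 1.006 and 1.003. The medians of its columns were -0.369 and 0.124.

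Intensities were corrected by normexp (offset 50) and normalized by loess within arrays (limma 3.58.1, R 4.3.3), with control spots at weight 0 and outlier-flagged spots left out, none of them a member's. Intensities per culture were scaled between arrays by Aquantile. Probes well above background in both pubertal or both infant channels were kept, and 15230 were left out. Ratios were tested with lmFit and eBayes, two-sided, with 4.33 prior degrees of freedom and 1 residual one, and the script was tested on simulated data. With 2 arrays no dye term could be fitted. P-values and intervals rest on the spread between these 2 pairs only in part. With so few residual degrees of freedom, limma draws the spread of each probe strongly toward that of all kept probes. The brightest kept probe stood for a gene in counts by gene. All probes of the 9 members were to be named, and of the other genes those with the same sign and largest means, plus CLU, VTN, C2, C4A, C5 and the C1q genes; 1 gene that the rule names is counted in the list but not reported here. C4A was not found by name, and the probe named C4B can bind its transcript. Members and lists were chosen with earlier results of these data known. Sequences come from the scanner files; those of the other probes are not printed.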

Additional observations from a re-analysis of the deposited data

How the results depend on the processing

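Leaving out an array turned the sign for the 9 of 14 complement probes whose signs differ between the arrays, in 1 of the 2 cases each. Under the other alternatives run on them, 13 of the 14 means kept their sign, and none passed the threshold. Only the scanner's signals, offset 0, median centring and the authors' ratios, listed for few members, gave new means. The authors' ratios followed the scanner's, with slopes of 1.006 and 1.003, so these 2 are not separate checks. The filters, the intensity trend, 1 probe per gene, the separate channels and the pairing within a dye left each mean unchanged. Under these the signs could not turn. CFB turned from -0.08 to 0.12 with median centring. Counts moved more. With the scanner's signals, with offset 0 and with median centring, 1 member probe was at least 1.5-fold higher on both arrays and 1 lower, against 0 and 0. The lower probe was not the same throughout. It was that of SERPING1 with the scanner's signals and can only be CFI A_23_P7212 with median centring. For offset 0 the values per array are not given, so the lower probe is not named. Pairing within a dye gave 1 higher and 0 lower, against 1.48% and 0.97% of all probes. For the other settings the share over all probes is not given, so their counts cannot be set against the array as a whole. With 1 array left out, the probes past that fold on the other numbered 2 higher in either case, and 0 to 3 lower. Members lower on both arrays numbered 2 with offset 0, 0 with the stricter filter and 2 with pairing within a dye, against 1. Members higher numbered 1 with median centring, against 2. That member was C3, so C1R was not higher on both arrays there. The 1 lower member with median centring was CFI in place of SERPING1. Of the other complement genes, 5 were higher with the scanner's signals, 0 higher and 2 lower with median centring, 6 and 9 without a filter, and 5 and 1 with pairing within a dye, against 3 and 4. Over all probes limma called 1 with offset 0, median centring, the stricter filter or an intensity trend, against 0, and it was no probe of the 9 members. The mean of C3 was 1.59 in the authors' deposited table. The ratios within an array already make the fit a paired one, and a fit of the 4 channels with no replicate block called 0 probes. The design of 2 pairs limits all probes, and SERPING1 and C3 are also dim.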
